A study of Mus musculus with 4 samples.

Results

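The mitochondrial carriers of the Slc25 family, with the uncoupling proteins that belong to it, were followed in mouse liver through 49 genes, out of 26135 genes tested on the array. The genes were taken by symbol from the annotation in the authors' deposited table (Slc25a or Ucp followed by a number), which gave 81 probes, and the brightest probe stood for a gene. The mutant group was 4 male C57Bl/6 mice, 3 months old, that the labels call Wrn mutant and that drank water with 0.4% vitamin C from weaning on. The control group was 4 untreated wild-type males of the same strain and age. The labels do not name the Wrn allele, and both groups had food and water freely on a reversed light cycle. Liver RNA of 1 mutant (Cy5) and 1 wild-type mouse (Cy3) shared each of 4 two-colour arrays, with the dyes the same way round throughout. Mutants without vitamin C and wild-type mice with it were not analysed here. Genotype, vitamin C and dye therefore cannot be told apart in any ratio. All ratios are on the log2 scale, mutant with vitamin C over wild type, given with the SD over the 4 arrays.

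Most carriers of this family sit in the inner mitochondrial membrane, which is otherwise closed to charged metabolites. They move nucleotides, phosphate, carboxylates, amino acids and cofactors between the cytosol and the matrix. Most bind 1 substrate on each side in turn and exchange it for another, and they share a signature sequence of a proline, an acidic residue and a basic residue that is repeated along the protein. In liver they serve the export of citrate for fat synthesis, the malate-aspartate shuttle, the ornithine and aspartate exchanges of the urea cycle, and the entry of acylcarnitines for fatty acid oxidation. The uncoupling proteins are relatives, of which Ucp1 carries protons in brown fat.

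The arrays were of uneven quality and the targeted gene was no guide to the labels. Between 82.1% and 96.1% of probes were well above background in a channel, with array 1 lowest in both. Wrn itself was at 0.00 ± 0.02 (SD, n = 4), which checks no label, since the site of the mutation is not known from these labels. Every hepatocyte marker tested, albumin among them, was well above background in all channels. That flag does not separate expressed from silent genes on these arrays: 88.2% of the genes tested carried it in every channel, and so did all 3 skeletal muscle markers. It was also met by 48 of the 49 carrier genes, the exception being Slc25a41 on 1 array. No probe that stands for a carrier was saturated.

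Most carrier genes differed little between the groups. Of the 49 genes, 3 were higher in the mutant with vitamin C (Slc25a5, Slc25a26 and Slc25a34), 5 were lower (Slc25a30, Slc25a33, Slc25a45, Slc25a13 and Slc25a12), and 41 did not pass the limma test at an adjusted p of 0.05. The share that passed, 16.3%, was near the 12.2% of all genes tested that passed, so the count says nothing particular about the family. By direction the backgrounds were 6.64% higher and 5.57% lower. The counts in the groups and lists below are to be read beside these shares. With so few genes in each, they say nothing particular about a group. The median ratio of the carriers was -0.01, against 0.01 over all genes, and 33 of the 49 genes lay within 0.1 of 0. Their median SD over the arrays was 0.09, against 0.10 over all genes. Ratios had 1 sign on every array in 18 carrier genes (36.7%), against 40.4% of all genes. One change reached 1.5-fold, that of Slc25a30, where 0.738% of all genes passed with a change of that size.

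**Figure D1:**
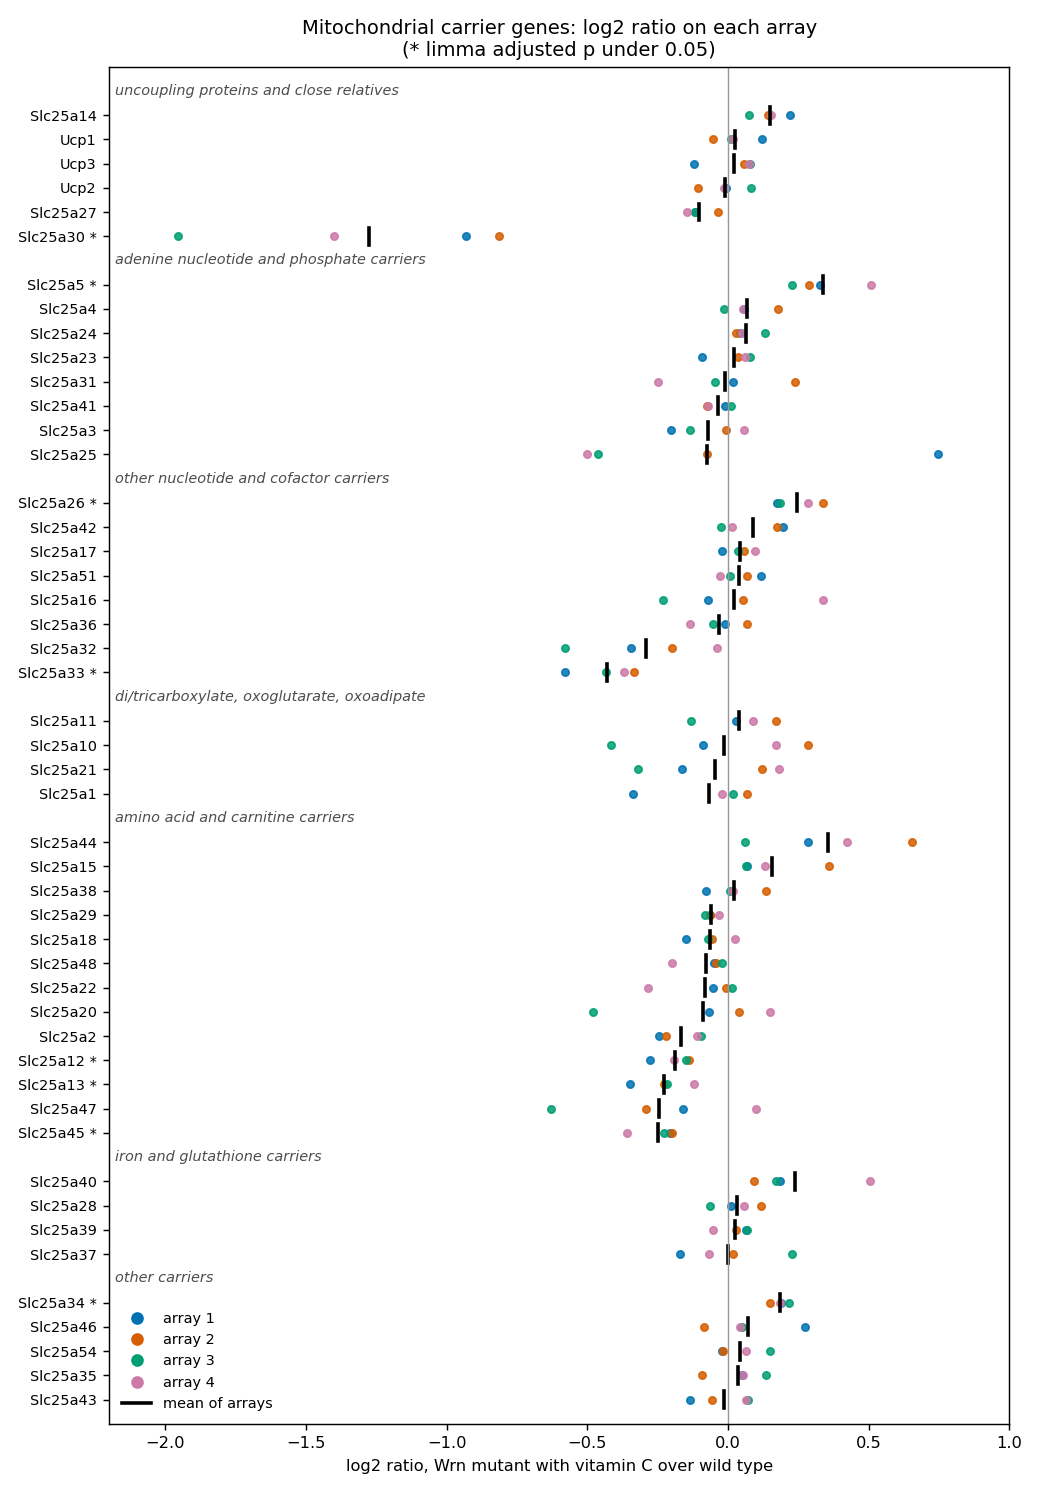
Log2 ratio of 48 of the 49 carrier genes (vertical axis, grouped by what they carry) on each array (coloured points) with the mean over the 4 arrays (black bar). Slc25a30 stands apart at -1.28, the other means shown lie between -0.43 and 0.36, and Slc25a25 has points from -0.50 to 0.75.

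The calls rested on the ratio within each array. When the 8 channel values were fitted as 2 groups with no term for the array, 0 of the 49 carriers passed in limma, and 24 of all genes did. The levels of the mutant and wild-type animals themselves did not overlap for 5 carriers, which is 10.2% against a background of 7.50% of all genes. In 2 of them the mutants lay above, against 3.29% of all genes, and in 3 below, against 4.21%. These 5 were Slc25a5, Slc25a26, Slc25a30, Slc25a33 and Slc25a45. With loess alone, without Aquantile, 4 remained, and the levels of Slc25a26 overlapped. In bulk liver, fewer cells of a type and less RNA per cell cannot be told apart. Without replicate 2 no carrier passed, and 19 of all genes did. Without replicate 1 the carriers called were Slc25a30 and Slc25a33, and without replicate 4 they were the same pair. Without replicate 3 they were those together with Slc25a5 and Slc25a44.

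Among the uncoupling proteins and their close relatives, Slc25a30, also known as kidney mitochondrial carrier protein, fell, and the other 5 genes did not pass. The ratio of Slc25a30 was -0.93, -0.81, -1.95 and -1.40 on arrays 1 to 4. It was negative on every array, and deepest on array 3. Its log2 intensity was 11.20, 10.48, 11.03 and 10.18 in the mutants and 12.13, 11.29, 12.98 and 11.59 in the wild-type animals, so that the highest mutant stayed just under the lowest wild-type animal. The wild-type animals spread over 1.69 log2 units and the mutants over 1.01. The mean ratio was -1.28 ± 0.52 (SD, n = 4; 95% interval -1.70 to -0.85; limma adjusted p = 0.0162), or 2.42-fold lower. The authors' deposited table gives -1.29 for the same probe with an adjusted p of 0.0228.

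Slc25a30 was measured by 3 probes of different sequence, and all of them were lower. The 60-base probes are shown, brightest first, because they differ in sequence and gave 1 direction. For most probes the first 30 bases are printed. A whole probe is printed where it holds, in an open reading frame, the 6 codons of the carrier signature in a row (proline, any, aspartate or glutamate, any, any, and lysine or arginine), which are in capitals. Of the 75 carrier probes whose sequences were read on the given strand, 2 hold those codons (2.67%), against 0.624% of all probes on the array.
Slc25a30, brightest: agaggtgaggctccagagttttagccttta
Slc25a30, middle: ttcacttacagtaagactcgacctttgtga
Slc25a30, dimmest: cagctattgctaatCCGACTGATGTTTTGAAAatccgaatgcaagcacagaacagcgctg

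The middle probe had ratios of -0.71, -0.58, -1.65 and -1.18, with a mean of -1.03 ± 0.49 (limma adjusted p = 0.0178 over all probes). The dimmest, which holds the signature codons, had -0.35, -0.39, -1.26 and -0.52, with a mean of -0.63 ± 0.43 (adjusted p = 0.0381). The levels of the groups overlapped on both of these probes. On the middle one a mutant at 10.44 lay above a wild-type animal at 10.39, and on the dimmest a mutant at 7.93 above a wild-type animal at 7.54. Array 3 was the deepest on each of the 3 probes, and the size of the ratio fell with the brightness of the probe. Over the 3 probes together Slc25a30 had a mean of -0.98. The call was lost without replicate 2, where the ratio was -1.43 (adjusted p = 0.0557).

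The relatives of Slc25a30 did not follow it. Slc25a14 had a ratio of 0.15 ± 0.06 on its brightest probe (adjusted p = 0.0728), positive on all 4 arrays. Its other probe was at -0.05 ± 0.10, and with the mean of its probes Slc25a14 was at 0.047. Slc25a27 was at -0.10 ± 0.05 on its brightest probe (adjusted p = 0.147). Ucp1, the proton carrier of brown fat, was at 0.02 ± 0.07, Ucp3, known from muscle, at 0.02 ± 0.09, and Ucp2 at -0.01 ± 0.08, with 95% intervals that lay between -0.13 and 0.14 for all 3. Ucp1 and Ucp3 were among the dimmest carriers. Their mean log2 intensities were 7.26 and 7.15 in the mutants and 7.24 and 7.13 in the wild-type animals. Ratios near 0 at such levels show little about Ucp1 and Ucp3. The other Ucp2 probes gave -0.23 ± 0.25, with -0.59 on array 4, and -0.02 ± 0.06. Kupffer cells, the resident macrophages of liver, are known to express Ucp2, and 0 of the 6 Kupffer cell markers tested passed. All 6 markers were negative on array 4, where the second Ucp2 probe was lowest, from -0.19 for Emr1 to -0.86 for Cd5l. On that array the brightest Ucp2 probe was at -0.01 and the third at -0.08. On array 3 all 6 markers were positive, from 0.09 for Cd68 to 0.54 for Vsig4, with the second Ucp2 probe at -0.13. The part of Kupffer cells in the Ucp2 values was not tested.

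Of the adenine nucleotide and phosphate carriers, 1 of 8 was higher, 0 were lower and 7 did not pass. Slc25a5 encodes ANT2, which exchanges matrix ATP for cytosolic ADP. Its ratio was 0.32, 0.29, 0.23 and 0.51 on arrays 1 to 4. The mutants had log2 intensities of 17.03, 16.91, 16.87 and 16.86 and the wild-type animals 16.71, 16.63, 16.64 and 16.36, and every mutant lay above every wild-type animal. The mean ratio was 0.34 ± 0.12 (SD, n = 4; limma adjusted p = 0.0214), or 1.26-fold. Slc25a5 is very bright, and its size depended on the normalization: median centring gave 0.86 (adjusted p = 0.00636) and Agilent's processed signals 0.19 (adjusted p = 0.126).

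Slc25a4, the gene of ANT1, is the muscle form of the same exchanger. Its brightest probe shares a run of 17 bases with the Slc25a5 probe, the longest run shared between probes of 2 different carrier genes, and the run is in capitals in 30-base windows of both probes.
Slc25a5: cttgtcTTGTATGATGAGATCAAgaaatac
Slc25a4, brightest: ttgtattggtaTTGTATGATGAGATCAAaa
Slc25a4, dimmer: cgactgtctcaccaagatcttcaagtcgga

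The brightest Slc25a4 probe had ratios of 0.06, 0.18, -0.02 and 0.05, with a mean of 0.07 ± 0.08 (adjusted p = 0.373). Its other probe, read after its values had been seen, had -0.33, -0.28, -0.14 and -0.15, a mean of -0.23 ± 0.09 (limma adjusted p = 0.0354 over all probes). On that probe every mutant lay below every wild-type animal, with levels of 10.79, 10.59, 10.68 and 10.66 against 11.12, 10.86, 10.82 and 10.81. The 2 probes of Slc25a4 thus gave different calls. Slc25a3, the phosphate carrier that feeds ATP synthase, was at -0.07 ± 0.12 (adjusted p = 0.413), and with median centring it turned to 0.20 (adjusted p = 0.148).

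The ATP-Mg/phosphate carriers Slc25a23, Slc25a24 and Slc25a41 had ratios of 0.02 ± 0.08, 0.06 ± 0.05 and -0.04 ± 0.04. Slc25a41 was about as dim as Ucp1, with mean log2 intensities of 7.27 in the mutants and 7.31 in the wild-type animals. Its ratio near 0 thus shows little. The fourth ATP-Mg/phosphate carrier, Slc25a25, varied most among the arrays of all 49 genes. Its ratio was 0.75, -0.08, -0.46 and -0.50, with a mean of -0.07 ± 0.58 (adjusted p = 0.828; 95% interval -0.55 to 0.40). The wild-type animals had log2 intensities of 13.9, 15.4, 15.4 and 15.8 and the mutants 14.6, 15.3, 14.9 and 15.3. The wild-type animal of array 1 was the lowest of all 8, and the groups overlapped. Both dimmer probes had the same pattern, with 0.68, -0.06, -0.34 and -0.34 on the middle and 1.12, -0.13, -0.81 and -1.08 on the dimmest. On both, the wild-type animal of array 1 was again the lowest among the wild-type animals, at 12.6 against 13.5, 13.5 and 13.9, and at 9.80 against 10.6, 10.8 and 11.6. Array 1 also had the fewest probes above background, and the part of this in the Slc25a25 values was not tested.

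**Figure D2:**
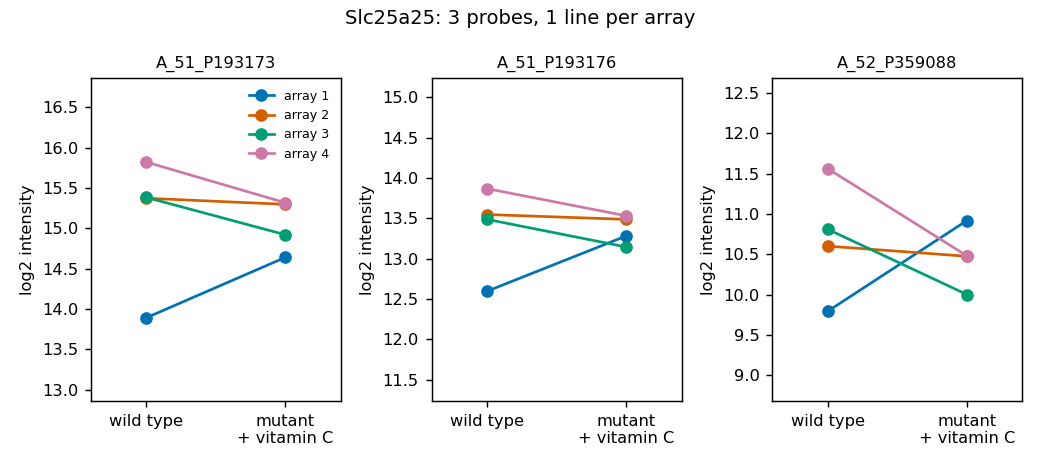
Log2 intensity of Slc25a25 (vertical axis) in wild-type and mutant channels for each of its 3 probes, brightest at left, with a line joining the 2 animals of an array. On all 3 probes the line of array 1 goes up and those of arrays 2, 3 and 4 go down.

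In the group of other nucleotide and cofactor carriers, 1 of 9 genes was lower, 1 was higher and 7 did not pass. Slc25a33, a carrier of pyrimidine nucleotides, had ratios of -0.58, -0.33, -0.43 and -0.37. The mutants had log2 intensities of 12.7, 12.5, 12.7 and 12.7 and the wild-type animals 13.3, 12.8, 13.2 and 13.1. Every mutant lay below every wild-type animal. The mean ratio was -0.43 ± 0.11 (SD, n = 4; limma adjusted p = 0.0137), or 1.35-fold lower, and its interval ran from -0.56 to -0.30. Slc25a36, which carries the same class of nucleotides, was at -0.03 ± 0.08 (adjusted p = 0.672). The 2 probes of Slc25a33 differed in spread.
Slc25a33, brightest: agtgttcaaaactgaaacagtgaaggccat
Slc25a33, dimmer: accttaatgaatcctatttggatggttaaa

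The dimmer Slc25a33 probe had -0.50, -0.07, -0.32 and 0.02, a mean of -0.22 ± 0.24 (adjusted p = 0.139 over all probes). Its ratio on array 4 was not negative, whereas the brightest probe was negative on every array. With the mean of both probes Slc25a33 was lower at -0.32 (adjusted p = 0.0371). The call was lost with Agilent's processed signals, at -0.37 (adjusted p = 0.0541), and without replicate 2, at -0.46 (adjusted p = 0.0557).

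Slc25a26, which brings S-adenosylmethionine, the methyl donor, into the matrix, had ratios of 0.17, 0.34, 0.18 and 0.28. The mutants had log2 intensities of 10.45, 10.63, 10.48 and 10.70 and the wild-type animals 10.27, 10.29, 10.29 and 10.42, a narrow gap that was lost without Aquantile. The mean ratio was 0.24 ± 0.08 (limma adjusted p = 0.0284). The call belongs to 1 of its 2 probes. The second probe holds the signature codons, in capitals, and had ratios of -0.15, 0.08, -0.22 and -0.09, with a mean of -0.09 ± 0.13 (adjusted p = 0.314 over all probes).
Slc25a26, brightest: agtgaccgccgcacacacttagtatttata
Slc25a26, dimmer: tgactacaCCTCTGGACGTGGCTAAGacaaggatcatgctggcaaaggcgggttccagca

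With the mean of both probes Slc25a26 was at 0.08 (adjusted p = 0.335), and the call was lost. Slc25a32, a carrier of folate and FAD, was at -0.34, -0.20, -0.58 and -0.04, a mean of -0.29 ± 0.23 that did not pass (adjusted p = 0.0707). The NAD carrier Slc25a51 was at 0.04 ± 0.06. Slc25a17, a carrier of cofactors in peroxisomes, had 0.04 ± 0.05 on its brightest probe. Its second probe had -0.48, -0.23, -0.27 and -0.10, a mean of -0.27 ± 0.16 (adjusted p = 0.0435 over all probes), and the third -0.03 ± 0.22.

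None of the 4 di- and tricarboxylate, oxoglutarate and oxoadipate carriers passed in limma, and 0 had an unadjusted p under 0.05. Slc25a1, which exports citrate for fatty acid synthesis, had ratios of -0.34, 0.07, 0.02 and -0.02, a mean of -0.07 ± 0.18 (95% interval -0.24 to 0.11). The dicarboxylate carrier Slc25a10 had a mean of -0.01 with values from -0.42 on array 3 to 0.28 on array 2 (SD 0.31, n = 4). With median centring Slc25a1 turned to 0.17 (limma adjusted p = 0.249) and Slc25a10 to 0.33 (adjusted p = 0.156). The oxoglutarate carrier Slc25a11, the partner of the aspartate carriers in the malate-aspartate shuttle, was at 0.04 ± 0.13, and with median centring it was higher at 0.30 (adjusted p = 0.0485). Slc25a21, the oxoadipate carrier, was at -0.05 ± 0.24. Slc25a10 had the widest 95% interval of the 4, from -0.28 to 0.25.

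Of the 13 amino acid and carnitine carriers 3 were lower, 0 were higher and 10 did not pass, where 5.57% of all genes were lower. Slc25a13 encodes citrin, the aspartate-glutamate carrier of liver, and Slc25a12 encodes its relative aralar. Slc25a13 was lower on its only probe and Slc25a12 on its brightest. Slc25a13 had ratios of -0.35, -0.23, -0.22 and -0.12, a mean of -0.23 ± 0.09 (SD, n = 4; limma adjusted p = 0.0358). The levels overlapped between groups, at 14.0, 14.6, 14.7 and 14.6 in the mutants and 14.4, 14.8, 14.9 and 14.7 in the wild-type animals, but each mutant lay below the wild-type animal of its own array. The direction turned with median centring, which gave 0.052 (adjusted p = 0.694).

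Slc25a12 had ratios of -0.28, -0.14, -0.15 and -0.19, a mean of -0.19 ± 0.06 (limma adjusted p = 0.0427). The levels again overlapped, at 11.4, 12.0, 11.9 and 12.0 against 11.7, 12.1, 12.0 and 12.2. Its 3 probes did not point 1 way. The second had 0.16, 0.04, 0.30 and 0.19, a mean of 0.17 ± 0.10 (adjusted p = 0.0749 over all probes), and the third 0.16, 0.21, 0.05 and 0.11, a mean of 0.13 ± 0.07 (adjusted p = 0.0996). Both of these were positive on all 4 arrays where the brightest was negative on all 4, and with the mean of the probes Slc25a12 was at 0.039 (adjusted p = 0.507). The mean log2 intensity over both channels was 11.89 for the brightest probe, 9.26 for the second and 6.59 for the third. The third is thus very dim, and its small ratio shows little, yet it weighs as much as each of the others in the mean of the probes. In the annotation of the authors' deposited table the brightest probe is listed against a RefSeq mRNA and the others against other transcript records.
Slc25a12, brightest: cgtgttgaaatgttttctgagccttggcat
Slc25a12, middle: agaatagtggctactataaattaagtctcc
Slc25a12, dimmest: actaacattttaattttaatatgtccaaat

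Slc25a45, a carrier placed here by sequence relation to the amino acid and carnitine carriers, had ratios of -0.21, -0.20, -0.23 and -0.36. The mutants had log2 intensities of 11.75, 11.62, 11.60 and 11.77 and the wild-type animals 11.96, 11.82, 11.82 and 12.13, without overlap. The mean ratio was -0.25 ± 0.07 (SD, n = 4; limma adjusted p = 0.0270). Its relative Slc25a47, a carrier found mainly in liver, had a mean of -0.25 with a wide spread of -0.16, -0.29, -0.63 and 0.10 (SD 0.30, n = 4; adjusted p = 0.173). With median centring Slc25a47 turned to 0.23 (adjusted p = 0.283), and Slc25a45 was at -0.17 (adjusted p = 0.0474). The third of these relatives, Slc25a48, was at -0.08 ± 0.08.

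Slc25a44, a carrier of branched-chain amino acids, had the highest mean of the 49 genes and did not pass. Its ratios were 0.28, 0.65, 0.06 and 0.42, a mean of 0.36 ± 0.25 (limma adjusted p = 0.0520; 95% interval 0.14 to 0.57). The levels overlapped, at 10.2, 10.2, 9.56 and 9.83 in the mutants and 9.87, 9.55, 9.50 and 9.41 in the wild-type animals. When adjusted over all probes in place of all genes, the same values passed (adjusted p = 0.0486). With median centring it also passed, at 0.38 (adjusted p = 0.0306).

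The ornithine carrier Slc25a15, which links the urea cycle across the membrane, was at 0.16 ± 0.14 (adjusted p = 0.133), and the second ornithine carrier, Slc25a2, at -0.17 ± 0.08 (adjusted p = 0.0624), negative on all 4 arrays. Slc25a20, the carnitine-acylcarnitine carrier of fatty acid oxidation, had -0.07, 0.04, -0.48 and 0.15, a mean of -0.09 ± 0.27 with a 95% interval from -0.33 to 0.15. The glutamate carriers Slc25a22 and Slc25a18 were at -0.08 ± 0.14 and -0.06 ± 0.07, and the glycine carrier Slc25a38 at 0.02 ± 0.09. Slc25a29, a carrier of basic amino acids, was close to 0 on its brightest probe, at -0.07, -0.07, -0.08 and -0.03. Its second probe, only slightly dimmer, had -0.29, -0.28, -0.83 and -0.30, a mean of -0.42 ± 0.27 (adjusted p = 0.0374 over all probes). Both Slc25a29 probes were negative on every array, and only the second passed.
Slc25a29, brightest: gcctcgctaagtctgccctatgcagacaga
Slc25a29, dimmer: agacaggccaccggcctcaatgtctccaca

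None of the 4 iron and glutathione carriers passed in limma at the adjusted threshold, and 1 had an unadjusted p under 0.05, Slc25a40. The mitoferrins Slc25a37 and Slc25a28, which bring iron into the matrix, were at 0.00 ± 0.17 and 0.03 ± 0.08. Of the glutathione importers, Slc25a40 had 0.18, 0.09, 0.17 and 0.50, a mean of 0.24 ± 0.18 (adjusted p = 0.0757), and Slc25a39 had 0.03 ± 0.06. With median centring Slc25a39 was higher at 0.50 (adjusted p = 0.00721). Among the 5 remaining carriers Slc25a34, whose substrate is not settled, was higher, with 0.19, 0.15, 0.22 and 0.18 and a mean of 0.18 ± 0.03 (SD, n = 4; limma adjusted p = 0.0361). Its levels overlapped between the groups, and each mutant lay above the wild-type animal of its own array. Slc25a46, Slc25a54, Slc25a35 and Slc25a43 had means from -0.01 to 0.07.

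**Figure D3:**
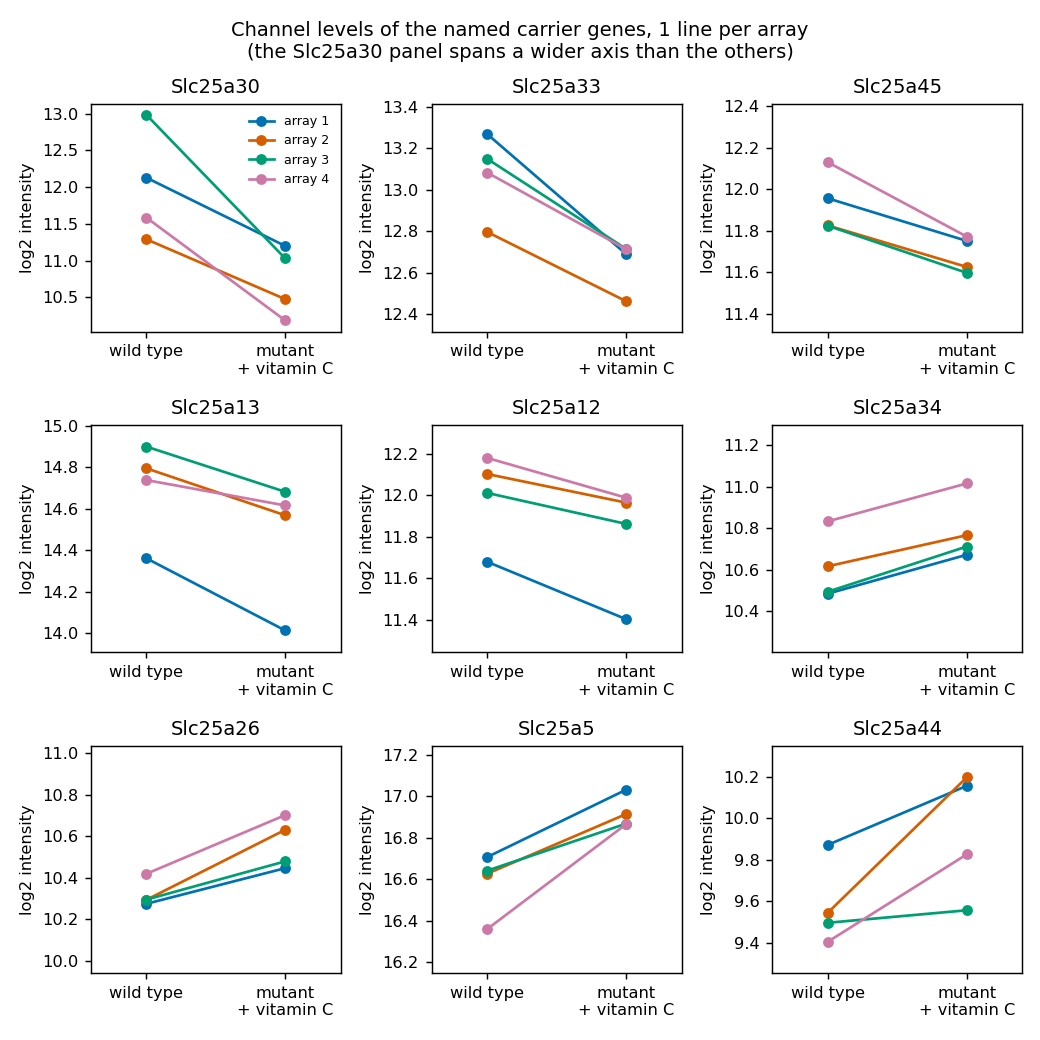
Log2 intensity (vertical axis) of the 8 carriers that passed and of Slc25a44 in wild-type and mutant channels, with a line joining the 2 animals of an array. Every line goes down for Slc25a30, Slc25a33, Slc25a45, Slc25a13 and Slc25a12 and up for the other 4 genes, and the Slc25a30 panel spans a wider axis.

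More than 1 probe was kept for 21 of the 49 genes, and their probes often gave different calls. Over all 79 kept carrier probes 15 passed (19%), against 13.0% of all probes on the array. Of the 4 called genes with several probes, all probes passed for 1, Slc25a30. The other 3 were Slc25a33, Slc25a26 and Slc25a12, in which the brightest alone passed. In 4 genes a dimmer probe passed and the brightest did not: Slc25a4, Slc25a17 and Slc25a29, where it was lower, and Slc25a27, where it was higher. These 4 were singled out after their values had been seen. For Slc25a27 the second probe had 0.21, 0.30, 0.18 and 0.24, a mean of 0.23 ± 0.05 (adjusted p = 0.0253 over all probes), on arrays where the brightest had -0.12, -0.04, -0.12 and -0.14. Both of these Slc25a27 probes were dim, with mean log2 intensities over both channels of 8.03 for the second and 8.25 for the brightest. No gene had probes that passed in opposite directions. The called genes Slc25a5, Slc25a34, Slc25a13 and Slc25a45 have 1 probe each and could not be compared in this way.
Slc25a27, brightest: aggaggaagcacacttttaaggccctttca
Slc25a27, middle: tgcttaggaaacacatttaacctttgagcc

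**Figure D4:**
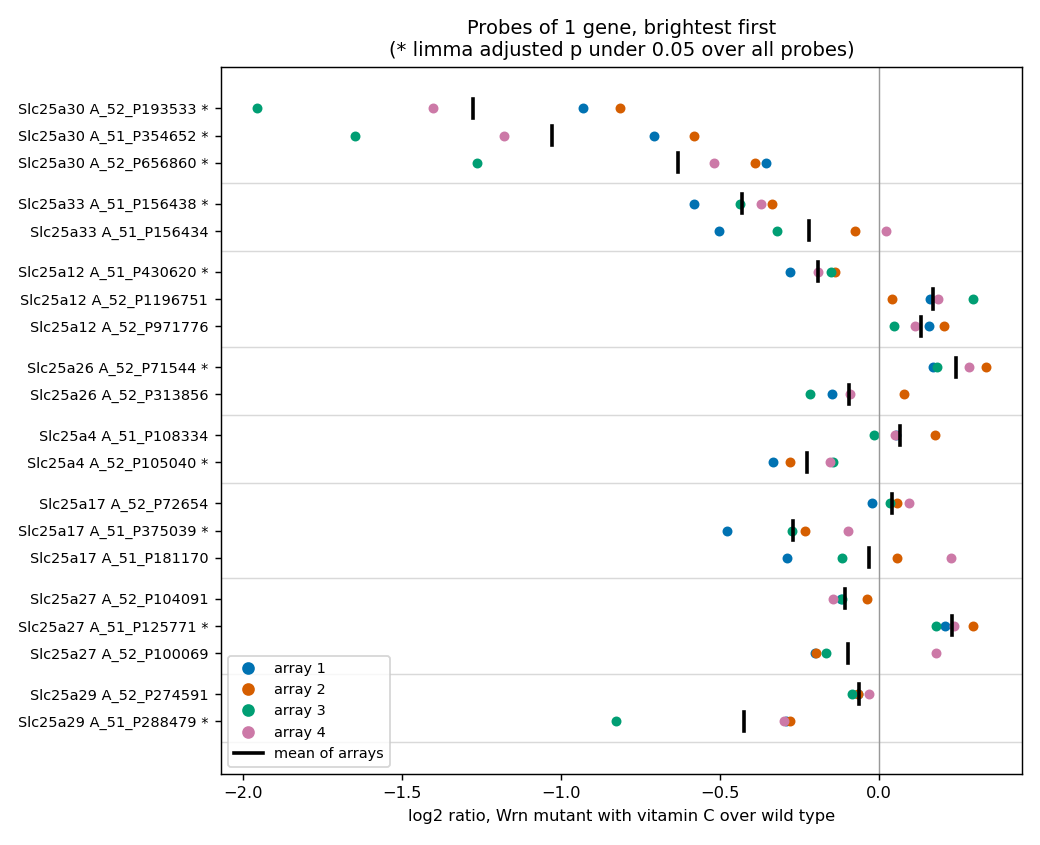
Log2 ratio on each array (coloured points) and mean (black bar) for every kept probe of 8 carriers with several probes, brightest first within a gene. The 3 Slc25a30 probes all lie below 0, and the probe means of Slc25a33 and Slc25a29 do too. Probe means of Slc25a12, Slc25a26, Slc25a4, Slc25a17 and Slc25a27 lie on both sides of 0.

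The scaling of the arrays changed which carriers passed. With median centring in place of loess, 9 carriers were higher and 3 lower, and over all genes 69.3% of calls were higher against 54.4% with loess. Slc25a30, Slc25a33 and Slc25a45 were lower and Slc25a5, Slc25a26 and Slc25a34 higher under both. With Agilent's processed signals Slc25a30 alone passed, at -1.30 (adjusted p = 0.0276). With the authors' deposited log2 ratios, fitted in the same way, 7 of the 8 carriers passed and Slc25a12 did not, at -0.19 (adjusted p = 0.0541). In the authors' deposited table itself, 5 of the 49 representative probes have an adjusted p under 0.05, namely Slc25a30, Slc25a33, Slc25a5, Slc25a26 and Slc25a45.

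**Figure D5:**
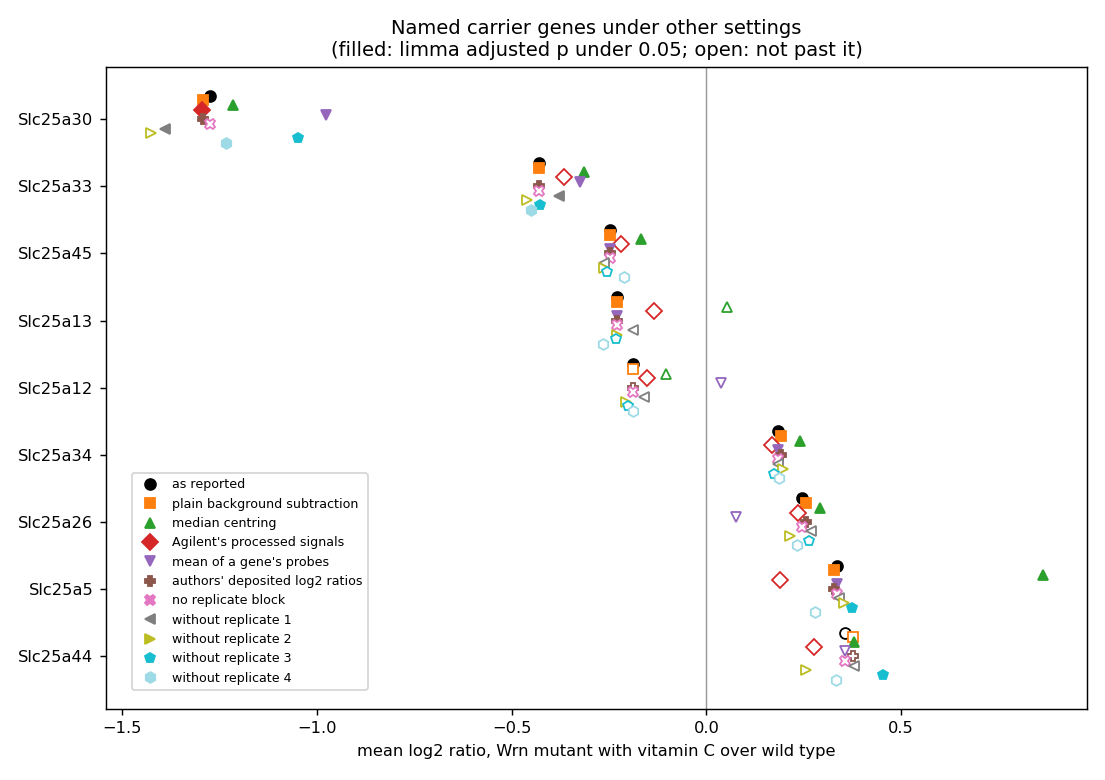
Mean log2 ratio (horizontal axis) of the 8 carriers that passed and of Slc25a44 as reported and under 10 other settings, with filled symbols where the limma adjusted p was under 0.05. Slc25a30 stays between -1.43 and -0.98, Slc25a5 runs from 0.19 to 0.86, and Slc25a13 and Slc25a12 each cross 0 under 1 setting.

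Genes that work beside the carriers were read from lists chosen by function, and over all genes tested 6.64% were higher and 5.57% lower. Of 19 enzymes that the carriers serve in the malate-aspartate shuttle, urea cycle, citrate export and carnitine shuttle, 3 were higher, 1 was lower and 15 did not pass. Mdh1, the cytosolic malate dehydrogenase of the shuttle, was at 0.71 ± 0.19 (limma adjusted p = 0.0103). Beside it, the aspartate-glutamate carriers Slc25a13, on its only probe, and Slc25a12, on its brightest, were lower. Slc25a13 turned to 0.052 with median centring, and Slc25a12 to 0.039 with the mean of its probes, 1 of which is very dim. Acly, which splits exported citrate, was at 0.60 ± 0.41 (adjusted p = 0.0415) beside a Slc25a1 ratio of -0.07, which turned to 0.17 with median centring. Cpt1a, which forms the acylcarnitines that Slc25a20 carries, was at -0.38 ± 0.07 (adjusted p = 0.0133). The median of this list was 0.13, against 0.01 over all genes.

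Of 16 genes for pyruvate, sideroflexin, calcium and outer membrane transport, 1 was higher, Sfxn5 at 0.41 ± 0.15, and 2 were lower, Tspo at -0.32 ± 0.20 and Sfxn3 at -0.23 ± 0.07. Tomm5, at 0.38 ± 0.17, was the 1 that was higher of 18 subunits of the TIM and TOM import complexes, and 0 were lower. Some of these subunits, not all, serve the entry of the carriers themselves into mitochondria. Of 11 regulators of mitochondrial and lipid genes, 1 was higher, Srebf1 at 0.58 ± 0.13, and 2 were lower, Foxo1 at -0.60 ± 0.05 and Ppara at -0.21 ± 0.10. Ppargc1a, a coactivator of mitochondrial genes, was at 0.17 ± 0.11 (adjusted p = 0.0819).

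Markers of other liver cells were read beside the carriers, and over all genes tested 6.64% were higher and 5.57% lower. Of 4 sinusoidal endothelial markers 2 were lower, Clec4g at -0.35 ± 0.20 and Kdr at -0.24 ± 0.09, and the mean log2 level of the list ran from 12.0 to 12.1 in the mutants and from 12.1 to 12.3 in the wild-type animals. Of 5 hepatocyte markers 2 were higher, Alb and Ttr, and 1 was lower, Hnf4a, with mean levels from 16.2 to 16.3 in the mutants and 15.9 to 16.3 in the wild-type animals. Of 4 stellate cell markers 1 was lower, Col1a1, and of 3 cholangiocyte markers 1 was lower, Sox9. In the Kupffer cell list, with mean levels from 12.4 to 12.8 in the mutants and 12.4 to 13.0 in the wild-type animals, none of 6 passed. On array 1, 5 of these 6 were positive, Marco being at -0.13, and on array 2 their signs were mixed. On array 3 all 6 were positive, and on array 4 all 6 were negative. None passed of the T and B cell (4), brown adipocyte (3) or muscle (3) markers, and 1 of 2 germ cell markers, Tnp1, was higher. The part of these cell types in the carrier ratios was not tested.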

How the data were processed

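Agilent Feature Extraction 10.5.1.1 gave the spot intensity values, per the file headers, which name mm9. The deposited files of the arrays hold median intensity and background intensity of both channels, processed signals and a log10 ratio of red over green. The authors' deposited table gives, per spot, log2 ratios, p-values and scores (moderated statistic, log odds, signed fold). The submitters' processing notes list limma. Flags of the scanner software, deposited as other values, marked dim and outlier spots. The authors' log2 ratios matched plain background subtraction and loess on every array (r over probes 0.99999 or more, where probes are not replicates).

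Here, median intensities, used because the files hold no mean intensity, were corrected with normexp (offset 50) and loess, in limma 3.58.1 under R 4.3.3, control spots having weight 0. Control and outlier spots were removed and spots of a probe averaged. Of 41174 probes 39080 were kept, being well above background in 1 channel on at least 3 arrays. The brightest probe per deposited symbol was tested against 0 by lmFit and eBayes. P-values were adjusted over 26135 genes after Benjamini and Hochberg. Other probes were tested over all kept probes. Levels per channel followed loess and Aquantile normalization, are open to dye bias, and are compared only within a probe. The 4 arrays lay on 1 slide with 1 scan time, and their number limits the precision. An exact permutation test by sign flips over 4 arrays cannot go below a two-sided p of 0.125. The fit was tested on simulated data. 0 numeric columns were left aside.

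The carrier genes and all lists were chosen with earlier results of these data known. The values of 1 carrier, which did not pass, are not reported here; it is kept in the counts. Named with every array are carriers past an adjusted p of 0.05 or with an absolute mean of 0.3 or more; others were chosen as examples or once values had been seen. The alternatives were background, normalization (for channel levels, no Aquantile), filter, probe rule, naming, moderation, array weights, pairing, threshold, the authors' values and each array left out.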

Additional observations from a re-analysis of the deposited data

Results flagged for a closer look

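With 4 arrays, 1 value far from the others is flagged by chance in about 1 in 20 groups, and the ratios of all 49 carriers and the channel levels of the carriers that passed were among those looked at. The ratio of Slc25a45 was -0.36 on array 4, apart from the other arrays, and that of Slc25a48, a relative, was -0.20 on the same array. The ratio of Ucp3 was -0.12 on array 1, below the other arrays. In the mutant channels the log2 intensity of Slc25a13 was 14.0 on array 1 and that of Slc25a33 was 12.5 on array 2, both the lowest of the mutants. In the wild-type channels Slc25a26 was 10.4 on array 4, the highest of the wild-type animals.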

How the results depend on the processing

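The counts of carriers higher and lower, 3 and 5, were 9 and 3 with median centring, 0 and 1 with Agilent's processed signals, and 0 and 0 with no replicate block, the array pairing left out. At an adjusted p under 0.10 there were 6 higher and 7 lower. Leaving out 1 replicate gave 0 to 2 higher and 0 to 2 lower, with 19 to 1340 genes in all. The count of all genes, 3192, was 4930 with median centring, 811 with processed signals, 24 with no replicate block and 6135 at an adjusted p under 0.10. The median of the carriers, -0.01, was 0.074 with median centring. Slc25a12 turned to 0.039 when its probes, 1 of them very dim, were averaged. Slc25a13 turned to 0.052 with median centring. Carriers that had not passed also turned positive with it, among them Slc25a10 (0.33), Slc25a25 (0.27), Slc25a47 (0.23), Slc25a3 (0.20) and Slc25a1 (0.17). The cause was not tested. Slc25a30 kept its direction in 16 of 16 alternatives and its call in 14. Slc25a33 kept its call in 13. Non-overlapping carriers numbered 4 without Aquantile, against 5. Filter, naming and no background correction changed no call of a carrier. Probes near background limit what small ratios can show.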
